A study of Drosophila melanogaster with 4 samples.

Results

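The genes described here are the protein-coding genes of *Drosophila melanogaster* that still carry only an annotation number as their symbol (CG plus digits) and whose RNA was lower in eye-antennal imaginal discs of the glass mutant than in wild-type discs. They were chosen by CPM, the read count of a gene scaled to a fixed total of reads in genes per library. A gene was taken when it had at least 2 CPM in both wild-type libraries and when its CPM plus 1 in both mutant libraries was at least 2-fold below the lower wild-type value. This rule gave 130 genes among 14885 measured, of which 5520 have a CG number as symbol and 2392 of these reached the wild-type minimum. The other 3128 CG genes were below that minimum in at least 1 wild-type library and could not be chosen. Of the CG genes past the minimum, 5.43% met the rule, against 5.93% of genes with another symbol, shares that lie close together. Because the mutant and wild-type values chose the genes, the differences between genotypes are given as a description, with no test.

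Discs came from wandering larvae of the third instar. The wild-type group holds 1 library of the strain Canton S and 1 of the strain RAL-208, which the submitters count as biological replicates. The mutant group holds 2 libraries of discs carrying the gl[60j] allele, described as technical replicates, so they are repeat measurements of 1 sample and not independent animals. The strain background of the mutant stock is not given in the sources used here, and background and genotype cannot be told apart in these libraries.

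The gene glass (gl) encodes a zinc finger transcription factor that is made in cells behind the morphogenetic furrow of the eye disc. There it is needed for photoreceptor precursors to mature into photoreceptor neurons, and in its absence the adult eye lacks working photoreceptors. Mature photoreceptors rely on ion channels, exchangers and transporters to signal light, while the antennal portion of the same disc forms other sense organs. A CG number marks a gene predicted from the genome sequence that has not received a name, although the family of its protein is often known from its sequence.

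The libraries held between 11292175 and 27044633 reads in genes, so that a count of 3 reads corresponds to between 0.111 and 0.266 CPM. Levels of the gl transcript were 105 and 108 CPM in the mutant libraries, where Canton S had 299 and RAL-208 had 235. The 11 markers of the eye-antennal disc (among them ey, eya, so, dac, hth and Dll) were all detected and summed to 2469 and 2494 CPM in the wild-type strains and 2763 and 2752 in the mutant, so the labelled tissue was present in every library. The 10 markers of differentiating photoreceptors that could be matched summed to 972 and 938 CPM against 548 and 544. Of these markers 5 met the fold criterion of the rule as lower in the mutant, among them Pph13 with 0 reads in both mutant libraries, whereas ro had 11.3 and 12.5 CPM in the wild-type strains against 20.4 and 21.1. In bulk discs, fewer cells of a type and less RNA per cell cannot be told apart.

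The losses ranged from just past the limit to almost complete. The ratio of mean wild-type to mean mutant CPM, each with 1 CPM added, had a median of 3.35 over the 130 genes and ran from 2.04 for CG9368 to 42.8 for CG5653. The median of the same ratio over all 2392 CG genes past the minimum was 1.04. Most losses were moderate, since 43 genes lay between 2-fold and 3-fold, 48 between 3-fold and 4-fold, 17 between 4-fold and 5-fold, 15 between 5-fold and 10-fold, and 7 above. The added 1 CPM makes these ratios smaller than plain ratios of CPM for weakly expressed genes. With the same rule and the groups exchanged, 47 of 2349 CG genes (2%) were higher in the mutant.

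**Figure D1:**
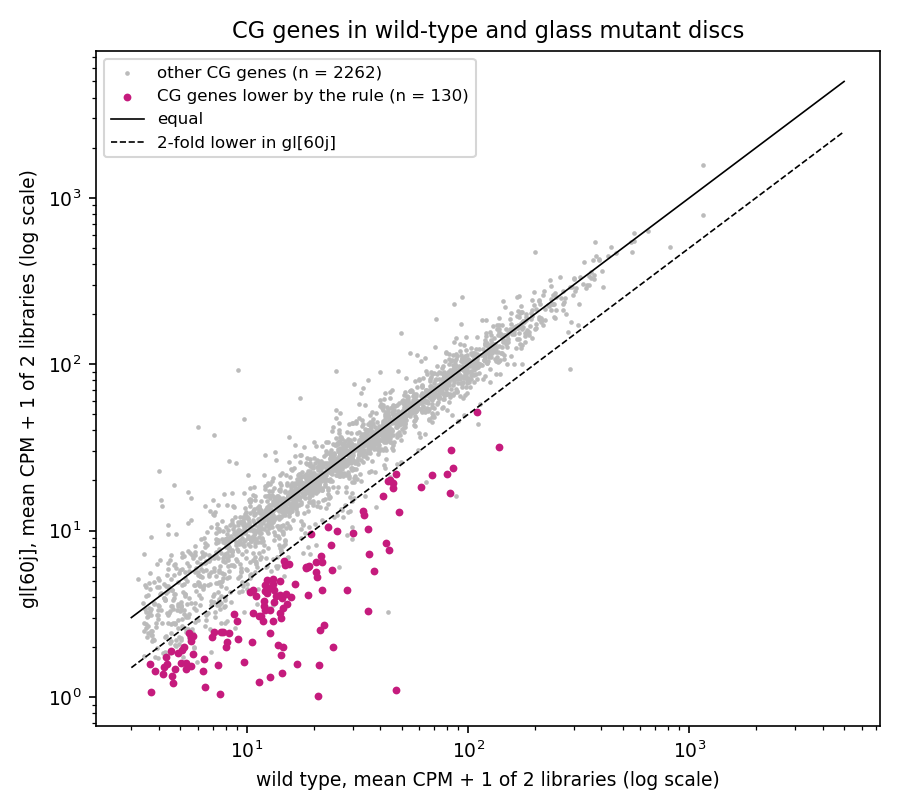
Mean CPM plus 1 of the wild-type libraries (horizontal axis) and of the gl[60j] libraries (vertical axis), both on log scales, for the 2392 CG genes past the minimum. Each point is a gene, with the 130 chosen genes coloured. The chosen genes lie under the dashed line of a 2-fold lower mutant level, as do some genes that were not chosen. Most of the chosen genes are at low to middle wild-type levels.

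The chosen genes were weakly to moderately expressed. Their mean wild-type level had a median of 12.7 CPM and ran from 2.63 to 136 CPM, whereas the median over all CG genes past the minimum was 24.4 CPM. In the mutant the median was 2.47 CPM, and 34 of the genes were under 1 CPM. No gene had 0 reads in both mutant libraries, 3 had 0 reads in the first of them (CG14075, CG4382 and CG13982), and 7 had at most 10 reads over both. Between the mutant libraries the larger and the smaller CPM plus 1 had a median ratio of 1.10 and a highest ratio of 1.54. Between the wild-type strains the median ratio was 1.26 and the highest 5.998. The added 1 CPM draws such ratios towards 1 at low levels, so the lower mutant values and the wild-type values are not compared on equal terms. For CG8665, at 0.177 and 0.444 CPM in the mutant libraries, the ratio was 1.23.

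On the scale with 1 CPM added the largest loss was that of CG5653, which had 51.8 CPM in Canton S and 40.4 in RAL-208 and was left with 0.0886 and 0.111 in the mutant libraries. Its 4 mutant reads against 1105 wild-type reads give a ratio of 443. The exact 95% interval of 172 to 1628 covers counting error only and takes no account of the choice of the gene by these same reads. Both mutant libraries were thus down to single reads for a gene well above the minimum in both strains. CG14075 followed, with 20.3 and 19.6 CPM in the wild-type strains. It had 1 read in the second mutant library and 0 in the other, for a ratio of 764 and an interval of 137 to 30254. In both genes the wild-type strains were close together. For CG4382, a gene of the carboxylesterase family, 156 wild-type reads stood against 2 mutant reads, a ratio of 125 (interval 34.03 to 1041), with 3.71 CPM in Canton S and 9.40 in RAL-208. CG13288 was at 5.28 and 5.59 CPM against 0.177 and 0.111 and CG13982 at 2.64 and 2.71 against 0 and 0.148, which is 5 and 4 reads over both mutant libraries.

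Among genes with more mutant reads, CG1090, which encodes a potassium-dependent sodium/calcium exchanger, had 25.4 and 21.6 CPM in the wild-type strains and 0.708 and 1.29 in the mutant. CG13023 was at 18.2 and 13.5 CPM against 0.531 and 0.629, a loss of 10.6-fold on the scale with 1 CPM added. CG13360 had 20.6 CPM in Canton S and 47.7 in RAL-208, against 2.48 and 2.11. RAL-208 was the higher strain for CG13360 and Canton S for the other genes of these 3. The wild-type strains lay further apart for CG31313, CG9150, CG8665 and CG42369, which also belong to the 15 largest losses and are taken up with the strains below. The remaining genes of the 15 were CG12239 (8.51-fold), CG4168 (8.22-fold), CG31760 (8.01-fold), CG42458 (7.37-fold) and CG31663 (6.77-fold). The last of these had 7.84 CPM in Canton S and 17.9 in RAL-208.

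**Figure D2:**
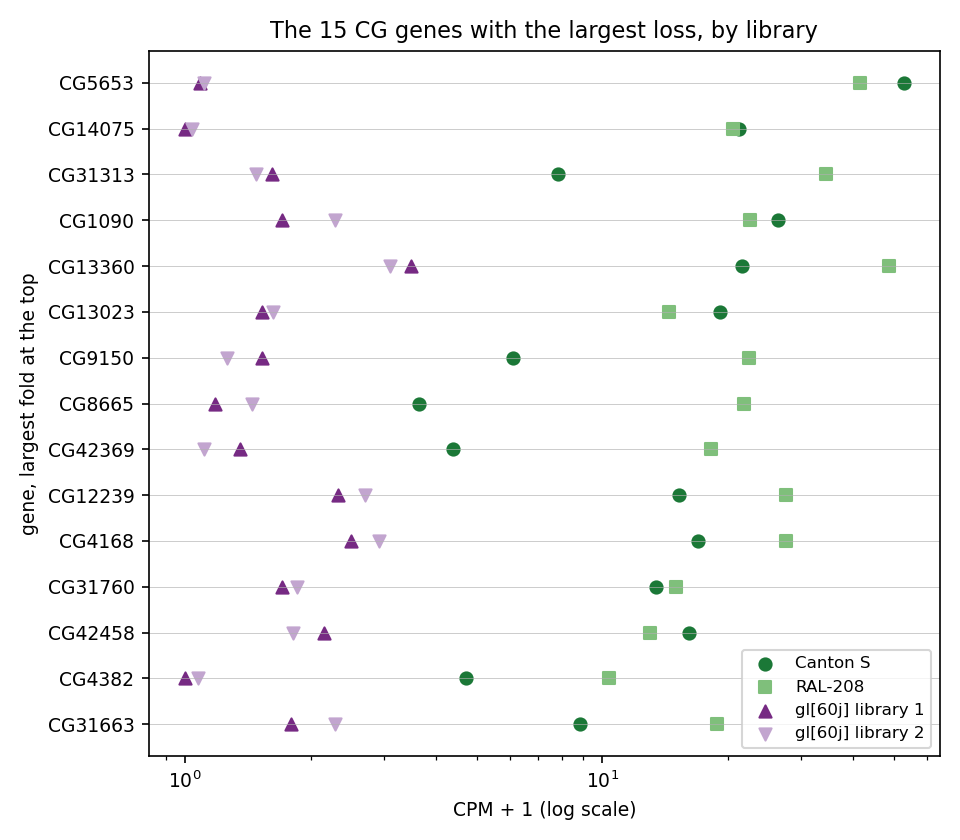
CPM plus 1 on a log scale for each of the 4 libraries (symbols), for the 15 genes with the largest ratio of mean wild-type to mean mutant level, ordered from CG5653 at the top. The rule places the mutant libraries left of both wild-type strains in every row, and the strains lie furthest apart for CG31313, CG9150, CG8665 and CG42369. Of the 15 genes, 7 are at least 2-fold higher in RAL-208 than in Canton S.

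Of the 10 most abundant genes, CG5653, described above, ranked last, and the others kept a larger share of their level. CG2269 had the highest wild-type level, at 159 CPM in Canton S and 113 in RAL-208. Its mutant libraries had 30.99 and 30.8 CPM, 4.30-fold less. CG3625 was at 77.2 and 85.8 CPM against 16.8 and 14.7, and CG7991 at 93.2 and 65.4 against 20.2 and 21.4. These genes kept 22.7%, 19.3% and 26.2% of their wild-type CPM. CG32638 (85.5 and 79.4 CPM against 32.6 and 26.2), CG34355 (54.0 and 116 against 23.6 and 22.1) and CG31221 (47.0 and 72.8 against 17.8 and 16.8) also belonged to the 10 most abundant. Divided by exonic length in kilobases, the wild-type level was highest for CG32638 at 52.4 CPM per kilobase, followed by CG3625 at 41.3, CG16926 at 35.01, CG2269 at 33.7, CG5653 at 31.5 and CG14075 at 29.6. On this scale CG5653 and CG14075 therefore stood near the top of the 130 genes in wild type, and in the mutant they were at 0.0682 and 0.0274 CPM per kilobase.

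A protein family could be given for 47 of the 130 genes, 15 from synonyms in the reference gene table and 32 from general knowledge of the fly genome, and none was given for the other 83. The files hold no annotation of function, and the grouping was made with the values known, so the groups are only an order of description. The genes without a family had a median loss of 3.35-fold, the same to 3 digits as the median of all 130, and they include CG5653 and CG14075.

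Channels, receptors and transporters of the cell membrane made up 10 genes, with losses from 2.13-fold to 12.2-fold and a median of 3.13-fold. The exchanger gene CG1090, with the largest loss, belongs to a family of proteins that remove calcium from the cell in exchange for sodium, with potassium carried out alongside. CG31760, which encodes a receptor of the class C group of G protein-coupled receptors, went from 12.5 and 14.1 CPM to 0.708 and 0.850. The ionotropic glutamate receptor gene CG11155 was far more abundant, at 111 and 107 CPM against 51.1 and 50.1, the smallest loss in the group. CG13920, whose synonym NACHO is the name of a mammalian factor for the assembly of nicotinic acetylcholine receptors, was at 20.5 and 25.4 CPM against 7.44 and 6.99. The potassium channel gene CG1688, of the K2P family, was at 4.54 and 4.57 CPM against 1.15 and 1.44.

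Apart from the exchanger gene CG1090, the transporter genes of this group had mean wild-type levels of at most 12.2 CPM. CG13248, an amino acid transporter gene with the synonym CAT-4, was at 9.99 and 14.4 CPM against 3.01 and 3.73. CG13795, a gene of the family of sodium-coupled neurotransmitter transporters, was at 4.62 and 8.98 against 1.59 and 1.29. CG13743, of another amino acid transporter family, was at 3.14 and 4.91 CPM against 0.708 and 0.481, and CG8908, an ABC transporter gene, at 5.20 and 3.39 against 0.620 and 0.592. CG13995, a G protein-coupled receptor gene, was at 6.19 and 7.12 CPM against 1.06 and 1.85. In this group 0 of 10 genes were 2-fold apart between the wild-type strains, as were 0 of the 9 nuclear, ubiquitin and signalling genes below. Over all CG genes past the minimum, 2.22% were at least 2-fold higher in RAL-208 and 2.34% in Canton S, so a count of 0 in so few genes lies near those shares.

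Metabolic enzymes formed the largest group, with 13 genes, a median loss of 3.66-fold and a range from 2.47-fold to 10.3-fold. Among the family groups it held the most genes at least 2-fold apart between the wild-type libraries, 4 higher in RAL-208 and 2 higher in Canton S. The genes without a family held 8 and 1 such genes. Over all CG genes past the minimum the shares were 2.22% and 2.34%. The short-chain dehydrogenase gene CG12116 had 58.8 CPM in Canton S and 24.5 in RAL-208, against 6.996 and 7.88. The aminotransferase gene CG8745 was at 39.8 and 29.1 CPM against 6.73 and 5.77. Sugar and glycoside metabolism was represented by CG11594, a carbohydrate kinase gene (18.7 and 7.96 CPM against 3.10 and 2.74), and by the alpha-galactosidase gene CG7997 (17.4 and 17.6 against 4.96 and 5.18). The aldo-keto reductase gene CG10863 was at 19.1 and 21.9 CPM against 5.67 and 6.32, and CG10512, of a malate and lactate dehydrogenase family, at 14.9 and 20.2 against 4.25 and 5.58. CG6415, which encodes the aminomethyltransferase of the glycine cleavage system, was at 4.46 and 4.15 CPM against 0.354 and 0.592. CG40472, listed with the synonym NDUFB2 for a subunit of respiratory complex I, was at 3.63 and 10.5 CPM against 0.974 and 1.04. Lower still in wild type were CG11425, a WUN-like lipid phosphatase gene (2.47-fold lower), and CG9512, a GMC oxidoreductase gene (2.69-fold lower).

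Surface and secreted proteins had the highest median loss of the groups, 3.83-fold over 10 genes, with a range from 2.54-fold to 8.22-fold. Proteins with leucine-rich repeats, a fold used in cell recognition, were encoded by CG4168 (16.01 and 26.6 CPM against 1.51 and 1.92), CG14762 (43.8 and 51.1 against 11.8 and 12.2) and CG32687 (27.0 and 14.7 against 5.84 and 5.14). A pair of genes is listed as tolloid-like by synonym, and their strain values differed. CG42613, also called dLev-10, had 21.7 CPM in Canton S and 50.9 in RAL-208, against 5.76 and 3.70, while CG34370 was at 19.2 and 19.9 against 4.16 and 5.14. The genes CG6329 and CG7781 encode small proteins of the Ly6 family, which are anchored to the outer membrane surface. They were at 54.0 and 81.4 CPM against 19.9 and 21.3, and at 18.9 and 27.4 against 5.22 and 4.33. CG17739, a spondin domain gene, was at 19.97 and 19.3 CPM against 4.25 and 4.29, CG7166, an immunoglobulin domain gene, was 2.54-fold lower, and CG30172, listed as a chemosensory protein gene, was 4.55-fold lower.

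Proteases and their inhibitors were 5 genes, with mean wild-type levels from 3.16 to 20.2 CPM. The cystatin-like inhibitor gene CG31313, the most abundant of them, was 13.6-fold lower. The serine protease and protease homologue genes CG4793, CG34436 and CG30091 were 3.58-fold, 3.02-fold and 2.65-fold lower, and the carboxypeptidase gene CG4678 was 3.02-fold lower.

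Nuclear, ubiquitin and signalling proteins had the smallest median loss, 2.74-fold over 9 genes. The largest in this group was that of CG42458, an HNRNPC-like gene for an RNA-binding protein, at 15.2 and 12.03 CPM against 1.15 and 0.813. CG11294, which encodes a homeodomain protein, was at 7.59 and 8.56 CPM against 1.15 and 1.29, a loss of 4.08-fold. The zinc finger genes CG12605 (46.0 and 43.9 CPM against 17.5 and 16.3) and CG12071 (44.4 and 44.8 against 19.3 and 17.4) were abundant and kept 37.6% and 41.2% of their wild-type CPM, and CG7368, of the same kind, was 2.44-fold lower. The F-box genes CG32085 and CG12402, for adaptors that bring proteins to the ubiquitin ligase, were 3.79-fold and 3.59-fold lower. The kinase gene CG4629 was 2.44-fold lower and the ankyrin repeat gene CG4393 2.74-fold lower.

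**Figure D3:**
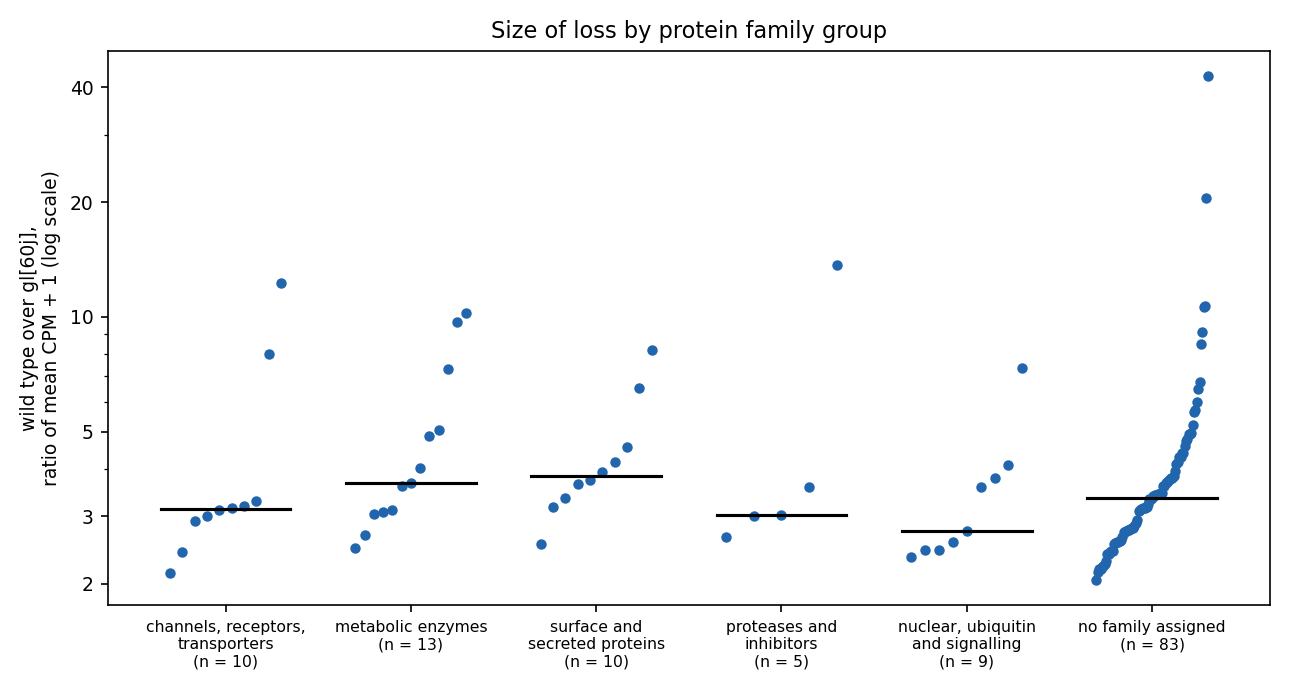
Ratio of mean wild-type to mean mutant CPM plus 1 (vertical axis, log scale) for each of the 130 genes, grouped by protein family, with a line at the median of each group. The group medians lie between 2.74 and 3.83, and the ranges of all groups overlap.

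The wild-type strains differed for some of the genes. The rule used both strain values, through the minimum and through the lower strain, so the shares that follow are a description and are not independent of the choice. RAL-208 was at least 2-fold above Canton S, on the scale of CPM plus 1, for 14 of the 130 genes (10.8%), against 2.22% of all CG genes past the minimum. Canton S was at least 2-fold above RAL-208 for 3 of them (2.31%), against 2.34%. In all, RAL-208 was the higher strain for 83 of the 130 genes (63.8%) and for 49.8% of all CG genes past the minimum. Each strain is 1 library, so these shares have no replicate check and no test, and a difference between strains and one between libraries cannot be told apart.

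The gene with the widest gap was CG8665, which encodes 10-formyltetrahydrofolate dehydrogenase of folate metabolism. It had 2.64 CPM in Canton S and 20.8 in RAL-208, against 0.177 and 0.444, so its large mean loss rests mostly on 1 strain. CG31313 was at 6.85 and 33.5 CPM in the wild types against 0.620 and 0.481, and CG42369 at 3.38 and 17.2 against 0.354 and 0.111. The short-chain dehydrogenase gene CG9150 was at 5.12 and 21.5 CPM against 0.531 and 0.259 and CG33307 at 3.71 and 13.6 against 0.797 and 0.444. In these genes Canton S was the lower strain, the one against which the rule set the mutant libraries. The 3 genes higher in Canton S were CG12116 (2.35-fold), CG11594 (2.20-fold) and CG9616 (2.04-fold, 5.20 and 2.03 CPM against 0.266 and 0.148). Of the 22 genes lost 5-fold or more by the mean, 10 were at least 2-fold higher in RAL-208, against 4 of the other 108. A high value in 1 strain raises the mean, so the loss was also taken from the lower strain to the higher mutant library. By that stricter ratio 16 genes were lost 4-fold or more, of which 3 were at least 2-fold higher in RAL-208, against 11 of the other 114.

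**Figure D4:**
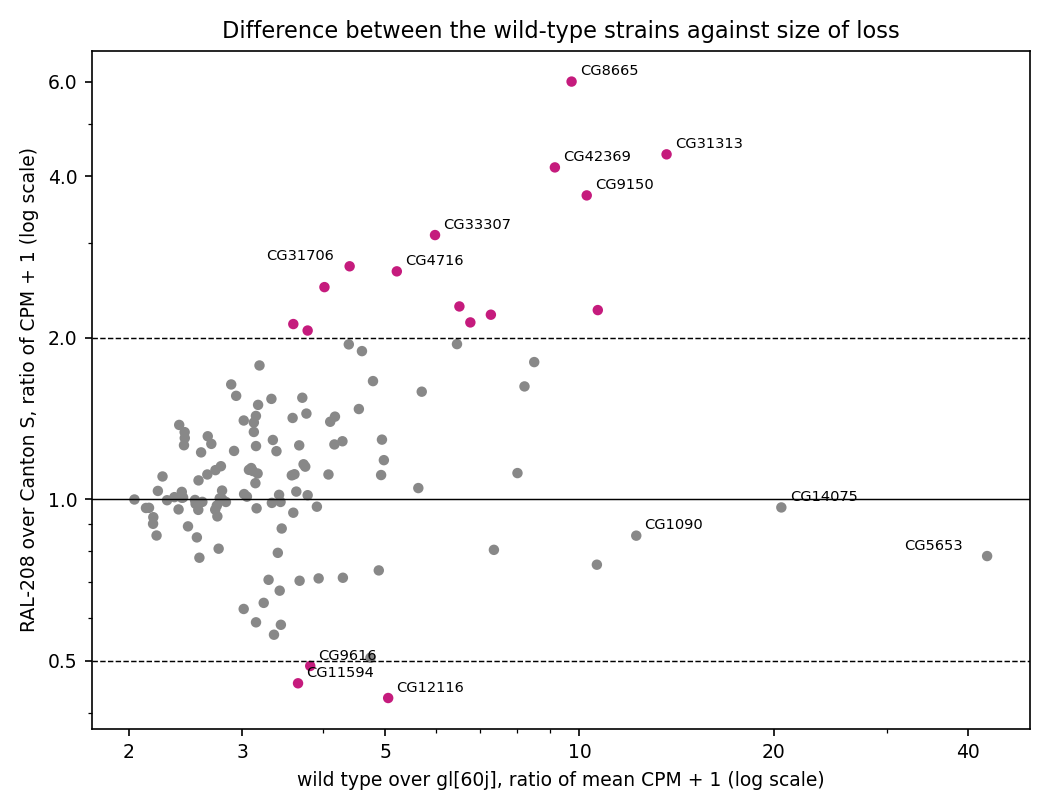
Ratio of RAL-208 to Canton S in CPM plus 1 (vertical axis) against the ratio of mean wild-type to mean mutant CPM plus 1 (horizontal axis), both on log scales, for the 130 genes. Coloured points are the 14 genes at least 2-fold higher in RAL-208 and the 3 at least 2-fold higher in Canton S, while CG5653, CG14075 and CG1090 combine a large loss with close strains.

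Markers listed for other tissues also differed between the libraries, and their part in the losses was not tested. Those listed for the central nervous system include genes of neurons in general, so brain tissue and photoreceptor neurons of the disc cannot be told apart by them. Of the 11 central nervous system markers found, 8 met the fold criterion as lower in the mutant, and they summed to 538 and 652 CPM in the wild-type strains, against 187 and 188. Of the 6 fat body markers 3 did so, with sums of 19789 CPM for Canton S and 10497 for RAL-208, against 2798 and 2722. All 4 larval cuticle markers did, with 45.9 and 116 CPM against 4.07 and 4.07. For scale, 5.93% of genes with another symbol past the wild-type minimum met the rule. These marker counts, like the one for photoreceptors, use its fold criterion without the minimum. Haemocyte markers (5 genes, 1 of them lower) summed to 353 CPM for Canton S and 721 for RAL-208, against 346 and 321. Within the fat body list the genes differed. Lsp1beta had 2043 CPM in Canton S and 5065 in RAL-208, against 31.9 and 31.1. Fbp1 had 7835 and 56.8, against 1894 and 1840, so its mutant values lay between those of the strains. Lsp2 and Fbp2 likewise lay between the strains.

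The other lists had sums closer to each other between the genotypes. Salivary gland markers (4 genes, 0 lower by the fold criterion) summed to 123 and 36.8 CPM against 77.8 and 81.2, and ring gland markers (4 genes, 1 lower, the hormone gene Akh) to 273 and 141 against 245 and 244. Muscle and myoblast markers (4 genes, 0 lower) were at 135 and 216 CPM against 142 and 136. Glial markers (5 genes, 2 lower, Eaat1 and alrm) were at 547 and 495 against 638 and 627, and tracheal markers (3 genes, 1 lower, trh) at 796 and 671 against 1014 and 1063. The glial sum was mostly Gli (435 and 374 CPM against 568 and 564), whereas Eaat1 was at 33.3 and 47.4 against 3.28 and 4.10. The tracheal sum was mostly verm and serp, whereas trh was at 18.5 and 31.6 CPM against 4.69 and 4.73.

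**Figure D5:**
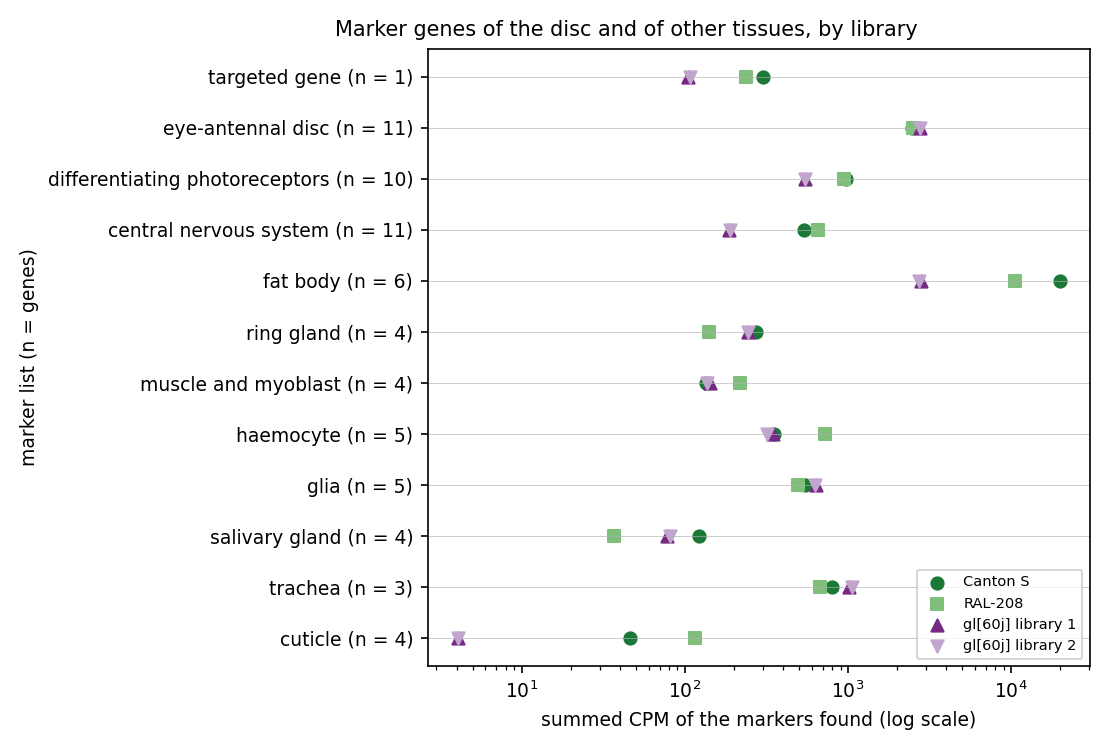
Summed CPM on a log scale of the gl transcript and of 11 marker lists (rows, with the number of genes found), for each of the 4 libraries (symbols). Disc markers lie together in all libraries, whereas the sums of nervous system, fat body and cuticle markers are lower in the mutant libraries.

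The 130 genes were spread over the genome. All had a gene model in the BDGP6 annotation and all are annotated as protein-coding. By chromosome arm, 25 lay on 2L, 25 on 2R, 35 on 3L, 26 on 3R, 16 on X and 3 on chromosome 4, which is 6.08%, 5.61%, 7.54%, 4.30%, 3.52% and 27.3% of the CG genes past the minimum there. The last share rests on 11 genes. The chosen genes had a median exonic length of 2760 bases and 5 exons, against 1882.5 bases and 4 exons over all CG genes past the minimum.

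In the order of measured genes along each BDGP6 chromosome, 10 of the 130 (7.69%) stood next to a gene that also met the rule, against 6.10% of all CG genes past the minimum. The pairs within the 130 genes were CG42369 with CG13982 and CG11155 with CG32017. The latter pair, on chromosome 4, overlaps in exons, so reads of the one could be counted for the other, and CG32017 was at 46.9 and 45.1 CPM against 20.8 and 20.9. The named neighbours that met the rule are described next, and their kinds were not compared with those of all genes meeting it. The zinc finger gene CG12605 stands beside scrt, another zinc finger gene, of neurons, which was at 173 and 191 CPM against 54.4 and 55.2. CG14989 (32.8 and 52.7 CPM against 7.08 and 6.29) stands beside Gad1, the gene for the enzyme that makes the transmitter GABA, at 11.3 and 36.8 against 1.51 and 1.29. CG1909 stands beside onecut, a homeobox gene, and was 2.39-fold lower where onecut was 2.75-fold lower. The other such neighbours were nrv3 beside CG8665, wry beside CG31663 and Root beside CG13607.

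Exons of 36 of the 130 genes (27.7%) overlap exons of another gene in BDGP6, 30 of them only on the opposite strand, against 43.0% of all CG genes past the minimum. Whether counting used strand is not stated here, and reads within the shared exon stretches of such pairs cannot be told apart. Among the genes described above these include CG3625, CG13360, CG31313, CG13023, CG32638, CG42613 and CG7781, whereas CG5653, CG14075, CG1090, CG4382, CG2269 and CG8665 have no such overlap.

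The limit of the rule falls within a continuous range of values. The genes nearest to it inside were CG15097, CG1774 and CG42272, with ratios of the lower wild-type to the higher mutant CPM plus 1 of 2.001, 2.008 and 2.01. Just outside were CG9098 at 1.989, CG42834 at 1.986 and CG9395 at 1.986. CG15097 was at 43.9 and 40.6 CPM against 17.8 and 19.8, and CG9098 at 25.8 and 30.7 against 12.5 and 11.6, so this pair had much the same loss. The rule compares the lower wild-type with the higher mutant library, so it also leaves out genes with a large mean loss. CG42834 was at 2.39 and 7.54 CPM against 0.708 and 0.555. CG4927, not chosen, had a mean of 42.5 CPM in wild type and 2.22 in the mutant. Its lower wild-type library was less than 2-fold above its higher mutant library in CPM plus 1, so the wild-type mean rests mostly on 1 strain.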

How the data were processed

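Each deposited table holds the authors' raw counts of reads for the genes of 1 library, under FlyBase identifiers and with no scaling. The submitters' processing notes name CASAVA 1.8, TopHat2 2.0, HTSeq and genome build dm3 but assign them no roles. How overlaps and strand were handled in counting, and with which annotation, is not given in the sources used here. The 5 summary lines of the counter were left out, and 74.4% to 76.7% of each table's total lay in genes. Symbols came from the reference gene table by FlyBase identifier (13745 of 14885 matched, 1140 did not and could not be chosen). CPM used the gene total of each library. Gene order, exons and lengths came from BDGP6, which is not dm3, so no coordinates are printed.

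The genes, marker lists and comparisons were chosen with earlier results of these data known. No test was made, because the rule uses the genotype contrast, the mutant libraries are technical replicates and each wild-type strain is 1 library. Named genes were those with the 15 largest losses, the 10 highest wild-type levels, the largest strain ratios and the smallest distance to the limit, and those next to each other. Genes of protein families were added after their values were seen. Intervals are exact binomial at 95% on pooled reads and cover counting error only. They take no account of the choice of the genes by the same reads. Alternatives used TMM factors of edgeR 4.0.16 and size factors of DESeq2 1.42.0 in R 4.3.3. Protein and promoter sequences were not used here.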

Additional observations from a re-analysis of the deposited data

How the results depend on the processing

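The number of genes chosen (130) depended on the fold limit and on the wild-type libraries. With 1 library left out at a time it ran from 150 to 296, with the median loss between 2.85-fold and 3.23-fold. The highest number, 296, came without Canton S and the next, 218, without RAL-208, with medians of 3.04 and 2.85. Fewer libraries to satisfy makes the rule easier to meet, and all 130 genes were among those chosen each time. A 4-fold limit left 16 genes. With TMM factors 116 of the 130 were chosen and with DESeq2 size factors 117, with no others. A minimum of 5 CPM left 96, a minimum of 1 CPM or none gave 138, a pseudocount of 0.5 CPM gave 156, and without genes that overlap others in exons, an alternative added after seeing the data, 94 were left. With all libraries kept, the settings of scaling, minimum, pseudocount and overlap gave median losses between 3.30-fold and 3.59-fold. The genes 2-fold apart between wild types numbered 17, as with TMM factors, 18 with a pseudocount of 0.5 CPM, 13 without overlapping genes and 35 at a limit of 1.5-fold. Planned comparisons of protein sequence and of the Glass motif in promoters were not run. No paired analysis was possible, because the wild-type libraries come from different strains and the mutant libraries are technical replicates. The wild-type labels also carry no replicate numbers, and no test was made. Genes with at most 10 mutant reads are limited by depth, as their wide intervals show.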
